A study of Homo sapiens with 6 samples.

Results

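The caspases, the BCL2 family and the receptors of the tumor necrosis factor (TNF) superfamily, with their main adaptors and ligands, were examined as one group of cell death genes. A gene belonged to the group if its symbol was CASP followed by digits, began with BCL2 or TNFRSF, or was one of 22 further named genes such as MCL1, BAX, FADD, CFLAR, FAS and TNFSF10, and 66 of the 20332 genes in the count table met this rule. The measurements came from poly(A) RNA sequencing of Huh-7 cells, an established hepatocellular carcinoma line. Stable cells overexpressing RAC3, a small GTPase, from a lentivirus were compared with negative control cells labelled WT, with 3 samples in each group. The genotype labels of the second and the third overexpression sample read RAC4 and RAC5 in place of RAC3, while their titles name RAC3. The expression vector's promoter and the number of clones or transductions behind the 3 samples are not given in the sources used here, so the spread between samples may be technical.

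Apoptosis runs through proteases called caspases, which are made inactive and are switched on by cleavage. In the extrinsic route, a ligand such as TRAIL binds a death receptor, and the adaptor FADD then brings the initiator caspase-8 to the receptor. In the intrinsic route, BH3-only proteins release or activate BAX and BAK, the mitochondrial outer membrane is permeabilized, and cytochrome c assembles APAF1 and caspase-9 into the apoptosome, while BCL2, BCL-XL and MCL1 hold this step back. Liver cells connect both routes through BID, which caspase-8 cleaves, and death after loss of attachment, called anoikis, uses the same proteins.

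RAC3 itself was measured at 35.6, 31.4 and 32.8 CPM (counts scaled to library size, with the TMM factors of edgeR) in the control samples and at 233, 240 and 225 CPM in the overexpression samples. It was therefore high in all 3 samples titled RAC3, with a log2 fold change of 2.81 ± 0.06 (standard error). The libraries held 13855762 to 18199888 counts. The 10 liver cell markers were all tested, and their summed level ran from 5534 to 5619 CPM in the controls and from 5081 to 5604 CPM in the overexpression samples. The 10 leukocyte markers summed to 43.9 to 51.1 CPM and 40.9 to 43.0 CPM, with MS4A1 and NKG7 at 0 in every sample, and the 6 endothelial markers to 2.66 to 3.15 CPM and 2.84 to 3.76 CPM, with TEK at 0. The 8 fibroblast and stellate cell markers summed to 237 to 254 CPM in the controls and 277 to 288 CPM in the overexpression samples, and the part of this difference in any result was not tested. The sums cover opposite changes, since LUM (0.22 ± 0.05) and COL1A2 (0.51 ± 0.06) were higher and COL1A1 (-0.22 ± 0.07) lower, and 3 liver markers passed higher and 3 lower (edgeR). Of the 3 leukocyte markers tested, CD14, which made up most of the sum, was lower (-0.37 ± 0.08) and CD68 higher (0.47 ± 0.17).

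Of the 66 members, 46 had enough counts for a test and 20 did not. No count was recorded in any sample for CASP12, CASP14, BCL2L10, TNFRSF13B or TNFRSF17, and a count of 0 allows up to 3 counts, or 0.167 to 0.215 CPM depending on the library. Another 15 members had counts but stayed under the filter, with no count above 16 in any sample: BCL2, BCL2A1, BCL2L15, CASP5, CD40, FAS, HRK, TNFRSF1B, TNFRSF4, TNFRSF6B, TNFRSF8, TNFRSF10C, TNFRSF13C, TNFRSF18 and TNFSF12. Of these, TNFRSF6B lies wholly within a readthrough gene and TNFSF12 shares exons with one, so their counts are uncertain as well.

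The levels of the members were compared with each other per transcript length, in FPKM, the authors' fragment counts scaled to transcript length and library size. Averaged over all 6 samples, 23 members were above 10 FPKM, 17 between 1 and 10 FPKM and 26 under 1 FPKM. BCL2L1, which encodes the anti-apoptotic BCL-XL and, by splicing, the pro-apoptotic BCL-XS, stood far above the rest at 446 FPKM and held rank 152 among all genes of the table. The next members were CASP4, an inflammatory caspase, at 86.8 FPKM, TNFRSF12A, the receptor for TWEAK, at 80.8 FPKM, and TNFRSF21, also known as death receptor 6, at 76.03 FPKM.

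**Figure D1:**
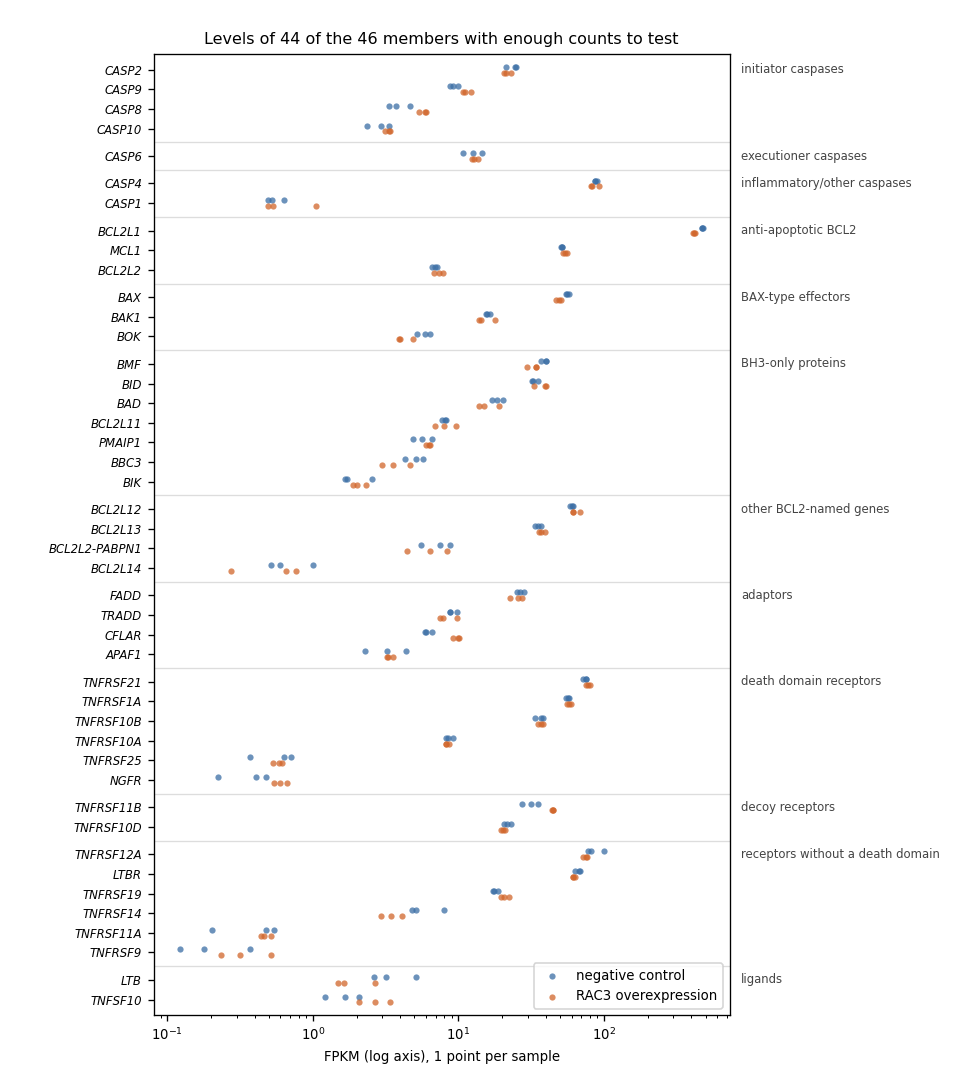
FPKM of 44 of the 46 members tested, 1 point per sample on a log axis, with the members grouped by role and the controls in blue and the overexpression samples in orange. BCL2L1 lies above all other members in every sample, and TNFRSF9, NGFR, TNFRSF11A, TNFRSF25, CASP1 and BCL2L14 lie under 1 FPKM on average.

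Among the 46 members tested, 15 passed an adjusted p of 0.05, 7 of them higher and 8 lower in the RAC3 overexpression samples (edgeR quasi-likelihood test, Benjamini-Hochberg adjustment over 12941 genes). That was 32.6% of the members, against 28.5% of all genes tested. In each direction the shares were likewise near the background, with 15.2% of members against 13.3% of genes higher and 17.4% against 15.3% lower. The median log2 fold change was 0.01 over the members and 0.00 over all genes tested, and the groups did not overlap for 41.3% of members against 42.5% of genes. When a 1.5-fold change and an unadjusted p under 0.05 were asked for, 5 members passed, or 10.9% against 4.68% of all genes, namely NGFR, TNFRSF9 and TNFSF10, which were higher (against 1.68% of genes), and TNFRSF14 and LTB, which were lower (against 2.99%). Their mean counts per sample were low, at 23.5 for NGFR, 20.3 for TNFRSF9, 63.8 for TNFSF10, 104.5 for TNFRSF14 and 37.8 for LTB. The part of these low counts in the share was not tested. The other 10 members that passed the adjusted p changed by less than 1.5-fold.

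**Figure D2:**
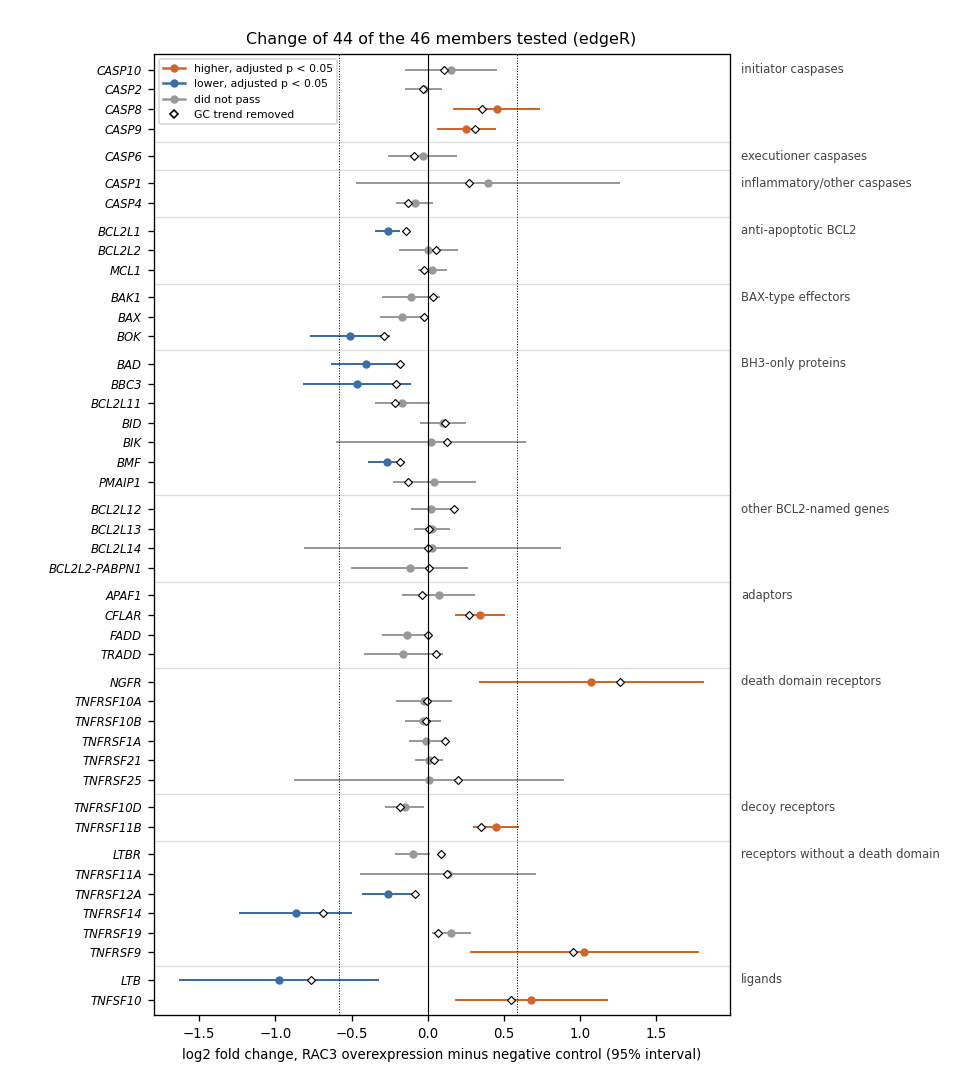
Log2 fold change (RAC3 overexpression minus negative control) of 44 of the 46 members tested with a 95% interval computed from the edgeR fit, by role, in orange or blue where the adjusted p was below 0.05. Dotted lines mark a 1.5-fold change and open diamonds the value after removal of the trend with GC content, which lies nearer to 0 for all 8 members that were lower.

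The base composition of the transcripts moved with the calls. Over all genes, the overexpression samples had less signal than the controls at high GC content and more at low GC content: at 60% GC, the deviation from the average sample was 0.13, 0.07 and 0.05 log2 units in the controls and -0.13, -0.04 and -0.06 in the overexpression samples. The 8 members that were lower had a transcript GC content of 54.8% to 69.7% (median 63.3%), and the 7 that were higher had 40.2% to 62.8% (median 43.9%), with NGFR as the GC-rich exception. With a trend on GC content removed in each sample, 9 members passed, against 20.7% of all genes, and 7 of the 15 were among them: BCL2L1, BMF, CASP9, CFLAR, NGFR, TNFRSF11B and TNFRSF14. Whether the trend is technical was not tested, and the values without it are given beside each of the 15 members below.

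**Figure D3:**
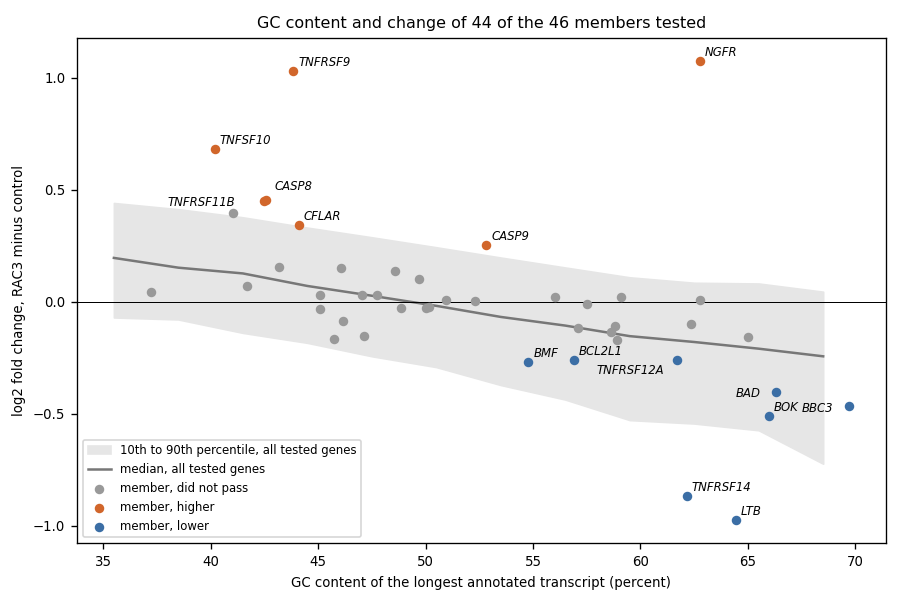
Log2 fold change of 44 of the 46 members tested against the GC content of their longest annotated protein-coding transcript, with the median and the 10th to 90th percentile of all tested genes in bins of GC content behind them. The median of all genes falls from 0.15 at 38.5% GC to -0.18 at 62.5% GC, NGFR lies far above it and TNFRSF14 and LTB lie far below it.

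The extrinsic route was represented first by its initiator, CASP8. CASP8 was measured at 8.96, 7.59 and 10.5 CPM in the controls and 11.6, 13.5 and 12.1 CPM in the overexpression samples. All 3 overexpression samples lay above all 3 controls, and the log2 fold change was 0.45 ± 0.13 (adjusted p = 0.0167, edgeR). It no longer passed without control replicate 2 (0.34, adjusted p = 0.0977), without overexpression replicate 2 (0.39, adjusted p = 0.0747) and with the GC trend removed (0.35, adjusted p = 0.0682). CASP10, its closest relative, differed by 0.15 ± 0.14 and did not pass, and the CASP10 counts per CASP8 count overlapped between the groups.

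CFLAR encodes FLIP, the caspase-8 relative without protease activity that competes at the receptor complex. It stood at 28.2, 28.97 and 28.0 CPM in the controls and 38.8, 35.9 and 33.1 CPM in the overexpression samples. The groups did not overlap, and the controls lay close together. CFLAR rose by 0.34 ± 0.08 on the log2 scale (adjusted p = 0.00238, edgeR), and the call held under all 16 other choices of scaling, filter, tool or samples, with values of 0.27 (GC trend removed, adjusted p = 0.0100, edgeR) to 0.40. On the log2(FPKM + 0.1) scale the difference was larger, 0.65, with group means of 6.15 ± 0.35 and 9.74 ± 0.47 FPKM (SD, n = 3). Within each library, CFLAR had 0.630, 0.632 and 0.576 counts per count of FADD in the controls and 1.03, 0.828 and 0.717 in the overexpression samples, with no overlap, while its ratio to CASP8 overlapped, at 3.14, 3.82 and 2.66 against 3.33, 2.65 and 2.75. FADD, the adaptor, was itself at 44.7, 45.8 and 48.7 CPM against 37.7, 43.4 and 46.2 CPM and did not pass (-0.14 ± 0.08, adjusted p = 0.192, edgeR), or 0.00 with the GC trend removed. An antisense gene overlaps 54.9% of the exon bases of FADD, whose GC content is 58.6% against 44.1% for CFLAR.

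CFLAR, CASP10 and CASP8 lie next to each other on the same strand of chromosome 2, from chr2:201116104 to chr2:201287711 in GRCh38 (GENCODE 29), a span of 172 kb. Within 500 kb on either side, 16 genes were tested and 4 passed, all higher: CFLAR, CASP8 and the neighbors BZW1 (0.25 ± 0.04) and TRAK2 (0.42 ± 0.07). CASP10 in the middle did not pass, nor did the other 11 genes. Of all genes tested, 28.5% passed and 13.3% passed higher. The window was drawn around CFLAR and CASP8 with their values known, so their calls do not count toward a comparison with these shares. Only BZW1 and TRAK2 do, beside the genes that did not pass. The 250 bases before the first RefSeq start of CFLAR and CASP8 (GRCh38.p14) are shown because these members, on either side of CASP10, both rose, with matches to 4 short motifs in capitals: GGGCGG (a GC box), TTCNNNGAA (the STAT type), TGANTCA (the AP-1 type) and GGGA and TTTCC with any 1 base between them (the NF-kappaB type), each searched on both strands.
CFLAR, chr2:201118466-201118715, plus strand: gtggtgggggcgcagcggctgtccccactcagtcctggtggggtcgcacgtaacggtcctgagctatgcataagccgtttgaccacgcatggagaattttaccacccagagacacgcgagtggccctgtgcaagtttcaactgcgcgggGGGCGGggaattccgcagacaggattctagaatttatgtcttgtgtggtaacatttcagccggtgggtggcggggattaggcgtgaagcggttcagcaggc
CASP8, chr2:201233213-201233462, plus strand: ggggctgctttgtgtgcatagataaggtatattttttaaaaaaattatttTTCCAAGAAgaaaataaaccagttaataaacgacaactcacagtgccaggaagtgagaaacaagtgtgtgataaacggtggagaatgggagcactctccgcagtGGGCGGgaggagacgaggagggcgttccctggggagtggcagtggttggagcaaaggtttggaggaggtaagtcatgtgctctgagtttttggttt
Both windows hold a GC box, which 42.2% of 27305 promoters of this length hold, and the CASP8 window also holds a STAT-type match, found in 6.76% of promoters. The CFLAR window lies inside the gene as GENCODE 29 bounds it, after an earlier start, and the CASP8 window runs across the GENCODE start. A match is a description of the letters and not of binding.

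Of the receptors that carry a death domain, 6 were tested and 1 passed, NGFR. Of all genes tested, 28.5% passed, and with so few receptors this count is not read as a difference from that share. TNFRSF1A, the main TNF receptor, was at 127, 125 and 120 CPM in the controls and 127, 123 and 119 CPM in the overexpression samples. The groups overlapped, with a log2 fold change of -0.01 and a 95% interval of -0.12 to 0.09. The TRAIL receptors TNFRSF10A and TNFRSF10B, which form a cluster with the decoys TNFRSF10C and TNFRSF10D on chromosome 8, overlapped as well, with differences of -0.02 (95% interval -0.20 to 0.15) and -0.03 (-0.14 to 0.08). TNFRSF21 differed by 0.01 (-0.08 to 0.09), and the scarce TNFRSF25 by 0.01 (-0.87 to 0.89). FAS, the receptor of FAS ligand, was all but missing, with 0, 1 and 0 counts in the controls and 3, 2 and 1 counts in the overexpression samples, so no fold is given.

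NGFR, the p75 neurotrophin receptor, passed at a low level. It had 19, 14 and 11 counts in the controls and 32, 37 and 28 counts in the overexpression samples, which are 1.36, 0.932 and 0.613 CPM against 1.80, 2.25 and 1.99 CPM. The groups did not overlap, and NGFR was higher by 1.08 ± 0.35 on the log2 scale (adjusted p = 0.0275, edgeR), or 1.26 with the GC trend removed (adjusted p = 0.0119). The call rested on every library but 1: it was lost without control replicate 2 (1.06, adjusted p = 0.0782) or 3 (0.81, 0.133) and without overexpression replicate 1 (1.15, 0.0540), 2 (0.99, 0.0932) or 3 (1.08, 0.0653), and also in DESeq2 (1.07, 0.0686). In FPKM the difference was 0.62. NGFR reached the count minimum of the filter in 2 controls and 3 overexpression samples, and 22.3% of its exon bases overlap a gene on the opposite strand, whose reads the unstranded kit does not separate.

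Decoy receptors bind ligand without passing on a death signal. TNFRSF11B, osteoprotegerin, a secreted decoy for RANKL and TRAIL, stood at 58.6, 66.4 and 74.3 CPM in the controls and 91.4, 91.9 and 89.7 CPM in the overexpression samples. The overexpression samples lay close together and all above the controls, which differed more among themselves. TNFRSF11B rose 1.37-fold, by 0.45 ± 0.07 on the log2 scale (adjusted p = 8.09e-05, edgeR), and remained past the threshold under all 16 other settings (0.35 with the GC trend removed, to 0.54). It also held 0.518, 0.540 and 0.593 counts per count of TNFRSF10B in the controls and 0.810, 0.755 and 0.746 in the overexpression samples. TNFRSF10D, the truncated TRAIL decoy, was lower by 0.15 without passing (adjusted p = 0.0569) and passed with the GC trend removed (-0.18, adjusted p = 0.0199, edgeR).

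Ligands and receptors without a death domain changed in both directions, with the 2 largest falls of the group among them. TNFRSF14, the HVEM receptor of LIGHT and BTLA, was at 9.96, 7.53 and 8.31 CPM in the controls and 3.83, 5.04 and 5.32 CPM in the overexpression samples. The groups were well apart, and TNFRSF14 fell by 0.87 ± 0.17 on the log2 scale (adjusted p = 0.00103, edgeR), or by 0.69 with the GC trend removed (adjusted p = 0.00545). The call held under all 16 other settings. An antisense gene overlaps 13.4% of its exon bases.

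LTB, lymphotoxin beta, which signals through the LTBR receptor, was the member with the lowest fold change. It was at 4.59, 2.33 and 2.79 CPM in the controls and 1.41, 1.28 and 2.27 CPM in the overexpression samples. The groups did not overlap, but control replicate 2 and overexpression replicate 3 nearly met. LTB fell by 0.98 ± 0.31 (adjusted p = 0.0245, edgeR), and it no longer passed without control replicate 1 (-0.66, adjusted p = 0.173), without overexpression replicate 1 (-0.87, 0.101) or 2 (-0.82, 0.0971) and with the GC trend removed (-0.77, 0.0813). Its receptor LTBR was at 64.5 FPKM, against 2.79 FPKM for LTB, and did not pass (-0.10 ± 0.05). The LTB counts per LTBR count overlapped between the groups.

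TNFRSF9, the co-stimulatory receptor 4-1BB, was under 1 FPKM and went the other way. It had 10, 16 and 13 counts in the controls and 32, 32 and 19 in the overexpression samples, or 0.716, 1.07 and 0.725 CPM against 1.80, 1.94 and 1.35 CPM. The groups did not overlap, and TNFRSF9 was higher by 1.03 ± 0.36 on the log2 scale (adjusted p = 0.0367, edgeR). It no longer passed without control replicate 1 (0.94, adjusted p = 0.115) or 3 (0.92, 0.124), without overexpression replicate 1 (0.98, 0.112) or 2 (0.92, 0.121), with the GC trend removed (0.95, 0.0626) and without the count filter (1.02, 0.0616), and in FPKM the difference was 0.52. The ligand of this receptor, TNFSF9, was lower, as given with the pathway genes below.

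The windows before the first RefSeq starts of TNFRSF9 and LTB are shown because they were the members with an NF-kappaB-type match, out of 43 members with a promoter in the table used. Such a match was found in 0.553% of all promoters, and these genes changed in opposite directions. Capitals mark the same 4 motifs as above.
TNFRSF9, chr1:7940840-7941089, minus strand: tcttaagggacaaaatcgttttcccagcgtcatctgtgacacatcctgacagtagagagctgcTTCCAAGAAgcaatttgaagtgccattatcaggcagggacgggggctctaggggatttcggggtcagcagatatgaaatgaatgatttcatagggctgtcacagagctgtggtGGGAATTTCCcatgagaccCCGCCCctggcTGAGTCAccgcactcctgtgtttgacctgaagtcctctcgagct
LTB, chr6:31582426-31582675, minus strand: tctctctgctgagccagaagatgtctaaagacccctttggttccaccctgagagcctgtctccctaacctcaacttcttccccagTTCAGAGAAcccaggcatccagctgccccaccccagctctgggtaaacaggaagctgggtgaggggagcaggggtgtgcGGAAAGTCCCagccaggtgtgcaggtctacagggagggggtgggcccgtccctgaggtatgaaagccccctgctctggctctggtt
The TNFRSF9 window also holds a STAT-type match, a GC box and an AP-1-type match (6.57% of all promoters), and the LTB window a STAT-type match. The TNFRSF9 window lies inside the gene as GENCODE 29 bounds it, and the LTB window runs across the GENCODE start.

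TNFSF10 encodes the death ligand TRAIL. It was at 3.08, 2.198 and 3.79 CPM in the controls and 6.08, 4.80 and 3.69 CPM in the overexpression samples. The groups overlapped, since overexpression replicate 3 lay under control replicate 3. TNFSF10 was higher by 0.68 ± 0.24 on the log2 scale (adjusted p = 0.0382, edgeR), and it no longer passed without control replicate 1 (0.68, adjusted p = 0.0665) or 2 (0.49, 0.168), without overexpression replicate 1 (0.48, 0.223) or 2 (0.70, 0.0723), in DESeq2 (0.68, 0.0775) and with the GC trend removed (0.55, 0.108).

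TNFRSF12A, the TWEAK receptor Fn14, was at 100.01, 79.8 and 75.8 CPM in the controls and 72.8, 71.5 and 68.0 CPM in the overexpression samples. Control replicate 1 lay well above the other controls, and the groups did not overlap. TNFRSF12A fell by 0.26 ± 0.08 on the log2 scale (adjusted p = 0.0173, edgeR), and it no longer passed without control replicate 1 (-0.14, adjusted p = 0.115), without overexpression replicate 3 (-0.24, 0.0783) and with the GC trend removed (-0.08, 0.445). TNFRSF19, a receptor of the same group, was 0.16 higher without passing (adjusted p = 0.0521, edgeR); it and the other members outside the naming rule were named after their values were seen.

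In the intrinsic route, the most abundant member fell. BCL2L1 was at 1284, 1209 and 1218 CPM in the controls and 1045, 1019 and 1032 CPM in the overexpression samples. The groups were far apart beside the spread within each, and BCL2L1 fell by 0.26 ± 0.04 on the log2 scale, to 0.834 of the control level (adjusted p = 3.36e-05, edgeR). With the GC trend removed the fall was 0.14 (adjusted p = 0.00248), and the call held under all 16 other settings. On the FPKM scale the means were 474 ± 8.08 and 417 ± 8.57 FPKM (SD, n = 3). The counts are per gene and do not separate BCL-XL from BCL-XS, and an antisense gene shares 43.0% of its exon bases.

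MCL1, the next most abundant anti-apoptotic transcript per length, was at 197, 193 and 196 CPM in the controls and 197, 202 and 200 CPM in the overexpression samples. The overexpression samples lay just above the controls, and the log2 difference was 0.03 (95% interval -0.06 to 0.12). The number of BCL2L1 counts per MCL1 count, which no library scaling touches but a trend with GC content does, was 6.53, 6.26 and 6.21 in the controls and 5.30, 5.04 and 5.16 in the overexpression samples, with no overlap. With the GC trend removed, the log2 changes were -0.14 for BCL2L1 and -0.03 for MCL1, which have a GC content of 56.9% and 45.1%. Against the effectors BAX and BAK1, with a GC content of 58.9% and 58.8%, the BCL2L1 ratios overlapped between the groups. Per BAX count they were 26.2, 26.4 and 25.078 in the controls and 25.082, 23.3 and 24.6 in the overexpression samples. Per BAK1 count they were 36.4, 33.4 and 35.5 against 35.3, 26.7 and 33.995. BCL2L1 made up 88.9% to 89.2% of the summed FPKM of the 6 anti-apoptotic genes in the controls and 86.7% to 87.8% in the overexpression samples. BCL2 itself had 10, 8 and 1 counts in the controls and 4, 3 and 10 counts in the overexpression samples and could not be tested, and BCL2L2 did not pass (0.00 ± 0.09).

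The pore-forming effectors all had negative estimates, and BOK passed. BOK was at 17.3, 13.9 and 15.7 CPM in the controls and 10.2, 12.6 and 10.1 CPM in the overexpression samples, with no overlap. It fell by 0.51 ± 0.12 on the log2 scale (adjusted p = 0.00412, edgeR), and by 0.29 with the GC trend removed, where the call was lost (adjusted p = 0.0824). BAX was at 49.0, 45.8 and 48.6 CPM against 41.6, 43.7 and 42.0 CPM, which did not overlap either, but its difference of -0.17 ± 0.06 missed the threshold (adjusted p = 0.0528, edgeR) and was -0.02 with the GC trend removed. BAX passed in the edgeR exact test (adjusted p = 0.0484), with at least 10 counts in every sample (0.0470) and in FPKM (-0.20, 0.0285). BAK1 was at 35.3, 36.2 and 34.3 CPM against 29.6, 38.1 and 30.4 CPM, with overexpression replicate 2 above all controls. Its difference of -0.11 ± 0.09 did not pass and turned to 0.04 with the GC trend removed, whereas without overexpression replicate 2 it was -0.23 (adjusted p = 0.0399, edgeR).

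Among the BH3-only proteins, which sense stress and set off the effectors, 3 of 7 tested members fell, namely BMF, BAD and BBC3. Of all genes tested, 15.3% were lower, and only BMF of these 3 passed with the GC trend removed. BMF, known for its link to the cytoskeleton and to anoikis, was at 159, 161 and 146 CPM in the controls and 136, 122 and 128 CPM in the overexpression samples. The groups did not overlap, and BMF fell by 0.27 ± 0.05 on the log2 scale (adjusted p = 0.000978, edgeR), and by 0.18 or more under all 16 other settings, the smallest fall being that with the GC trend removed. BAD, which binds BCL-XL when growth factor signaling stops, was at 19.8, 16.4 and 17.5 CPM against 12.4, 14.1 and 14.2 CPM. It fell by 0.40 ± 0.11 without overlap (adjusted p = 0.00828, edgeR), and by 0.18 with the GC trend removed, where the call was lost (adjusted p = 0.212), as it was in FPKM (-0.23, 0.214), and GPR137 on the opposite strand shares 23.7% of its exon bases.

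BBC3, or PUMA, a target of p53, was at 8.88, 10.1 and 7.64 CPM in the controls and 5.29, 7.83 and 6.10 CPM in the overexpression samples. Overexpression replicate 2 lay above control replicate 3, so the groups overlapped. BBC3 was lower by 0.46 ± 0.17 on the log2 scale (adjusted p = 0.0437, edgeR), and it no longer passed without control replicate 1 (-0.46, adjusted p = 0.0757) or 2 (-0.37, 0.177), without overexpression replicate 1 (-0.33, 0.203) or 3 (-0.43, 0.113), with library size alone (-0.41, 0.0685), in DESeq2 (-0.47, 0.0911) and with the GC trend removed (-0.21, 0.396). The 4 other BH3-only members tested, BCL2L11 (BIM), BID, BIK and PMAIP1 (NOXA), lay between -0.17 and 0.10 and did not pass. None of the 4 other BCL2-named genes tested passed either, the most abundant being BCL2L12 at 61.8 FPKM (0.02 ± 0.06), although BCL2L12 was higher with the GC trend removed (0.17, adjusted p = 0.0359, edgeR), and IRF3 on the opposite strand shares 33.1% of its exon bases.

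Downstream of the mitochondria, CASP9 is the initiator that APAF1 switches on. It was at 18.8, 21.2 and 18.9 CPM in the controls and 21.9, 24.0 and 24.3 CPM in the overexpression samples. The groups did not overlap, though control replicate 2 and overexpression replicate 1 were close. CASP9 was higher by 0.25 ± 0.09 on the log2 scale (adjusted p = 0.0403, edgeR) and by 0.31 with the GC trend removed (adjusted p = 0.0134), and it no longer passed without control replicate 1 (0.22, adjusted p = 0.115) or 3 (0.22, 0.126), without overexpression replicate 2 (0.23, 0.0996) or 3 (0.23, 0.126) and in DESeq2 (0.25, 0.107). APAF1 did not pass (0.07 ± 0.11), nor did CASP2, the most abundant initiator at 22.6 FPKM (-0.03 ± 0.06).

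CASP6, an executioner caspase that cleaves lamins, was at 17.4, 19.6 and 23.6 CPM in the controls and 20.5, 18.7 and 20.4 CPM in the overexpression samples. The groups overlapped, and its difference of -0.03 ± 0.11 did not pass. The inflammatory caspases tested, CASP4 (-0.09 ± 0.05) and the scarce CASP1 (0.40 ± 0.41), did not pass.

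**Figure D4:**
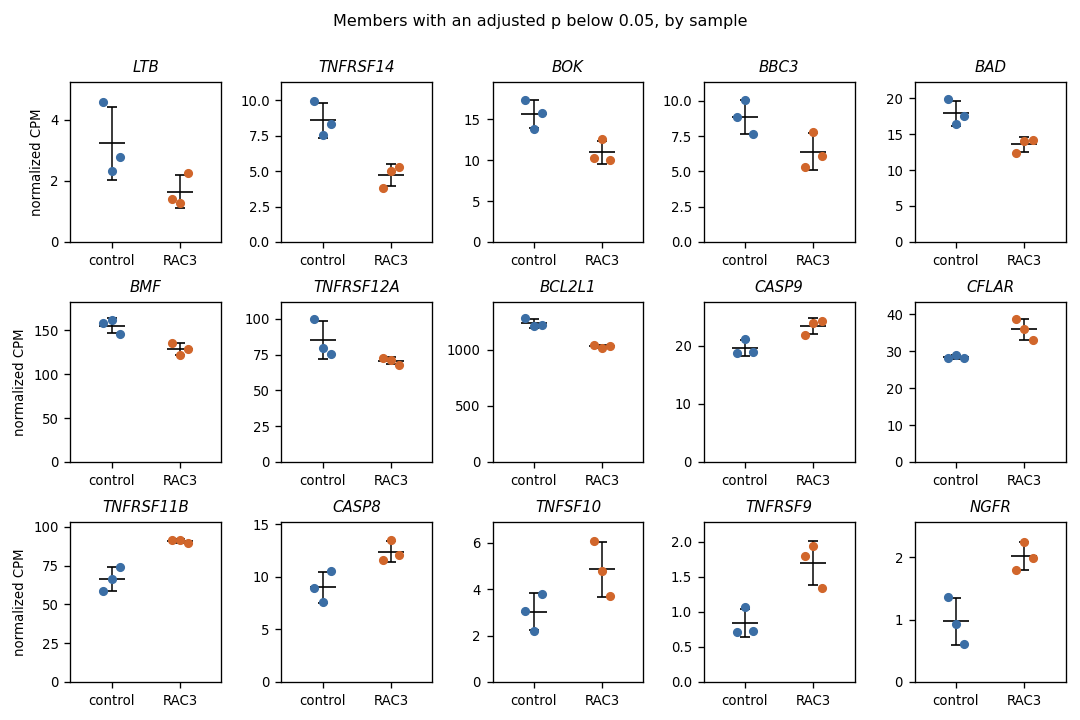
Normalized CPM of the 15 members with an adjusted p below 0.05, 1 point per sample, with the mean and SD of the 3 samples of each group in black and each axis starting at 0, ordered from the lowest to the highest log2 fold change. The groups overlap for BBC3 and TNFSF10, and NGFR and TNFRSF9 lie near 1 to 2 CPM.

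Other genes of these pathways were taken from 7 lists with 107 genes, of which 105 were in the table and 78 tested. Of these, 24 passed (edgeR), or 30.8% against the same background of 28.5%, 13 higher and 11 lower, and with the GC trend removed 14 passed. Of all genes tested, 13.3% were higher and 15.3% lower, which is also the background of each list below. Among the inhibitor of apoptosis proteins and their antagonists, 1 of 8 passed: BIRC3, the cIAP2 ubiquitin ligase that TNF receptors recruit, rose from 7.72 ± 1.04 to 13.9 ± 1.21 CPM (SD, n = 3; 0.86 ± 0.13 on the log2 scale). In the mitochondrial list 3 of 11 rose and 2 fell. The relatives BNIP3 (-0.85 ± 0.09) and BNIP3L (-0.44 ± 0.07), which act in mitophagy, fell, while BNIP2 (0.27 ± 0.08) and CYCS, cytochrome c (0.14 ± 0.04), were higher.

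The list of TRAF, RIP and other receptor complex proteins had 3 higher and 5 lower of 27 tested. RIPK1, the kinase between survival and death at TNF receptors, rose by 0.33 ± 0.08 and CASP8AP2, a caspase-8 binding protein, by 0.36 ± 0.09, whereas RBCK1, or HOIL-1 of the linear ubiquitin complex, fell by 0.48 ± 0.05 and TRAF7 by 0.31 ± 0.05. Of 11 caspase substrates and execution genes 1 was higher, LMNB1 (0.20 ± 0.05), and 3 were lower, among them LMNA (-0.24 ± 0.04) and SPTAN1 (-0.12 ± 0.03). Of the other TNF ligands and receptors 4 were tested and TNFSF9, the ligand of TNFRSF9, was lower (-0.78 ± 0.25).

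Among 13 tested p53 genes outside the group, 4 were higher and none lower, against 13.3% and 15.3% of all genes tested. The smallest p-values of the 4 were those of MDM2, the ubiquitin ligase of p53 (0.28 ± 0.06), and GADD45A, a DNA damage response gene (0.28 ± 0.07). Among 5 inflammasome genes NLRP1 was higher (0.35 ± 0.07). With the GC trend removed, BNIP2, CASP8AP2, CYCS, LMNA, MDM2, SPTAN1 and TNFSF9 no longer passed, in FPKM BNIP3L, CYCS, NLRP1, SPTAN1 and TNFSF9 did not, and the same held for SPTAN1 with library size alone (-0.07, adjusted p = 0.128) and TNFSF9 in DESeq2 (-0.79, 0.0533). The call was lost without 1 library for BNIP2 (0.23 without control replicate 2), GADD45A (0.22 without the same sample), CYCS (0.12 and 0.14 without control replicates 1 and 2, 0.11 and 0.15 without overexpression replicates 1 and 3) and TNFSF9 (-0.57 and -0.81 without control replicates 1 and 3, -0.71 and -0.75 without overexpression replicates 2 and 3).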

How the data were processed

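RNA was made into libraries with the NEBNext Ultra kit, which does not mark strand. Per the labels, the submitters' processing notes name Bowtie2 2.2.8, HISAT2, StringTie 1.3.1 and DESeq2; the genome build of the alignment is not given in the sources used here. The authors deposited raw read counts and FPKM values per gene and sample; their mean, fold change and p-value columns were not used. Counts were filtered with filterByExpr, scaled by TMM and tested with the quasi-likelihood test of edgeR 4.0.16 in R 4.3.3, with Benjamini-Hochberg adjustment over all 12941 genes tested. Standard errors come from the same fit. Positions, exon overlaps and GC content were taken from GENCODE 29 (GRCh38) for 20113 of 20332 identifiers, and promoters from RefSeq (GRCh38.p14) for 43 of the 66 members. The members, roles, pathway lists, motifs and tests were chosen with earlier results of these data known. Named were members past either threshold, 12 central members, the most abundant member of each role, and up to 2 pathway genes per list and direction with the smallest p and a mean of at least 10 counts. The values of 2 members are not reported here. The fits were tested on simulated data. Alternatives used limma 3.58.1 and DESeq2 1.42.0, and a limma fit of log2(FPKM + 0.1) was added after seeing the data. With 3 samples against 3, no exact permutation test can go below 0.1, so none was run.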

Additional observations from a re-analysis of the deposited data

How the results depend on the processing

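The 15 members passing became 9 with the GC trend removed and 9 in FPKM (16.7% of all genes; BAD, BBC3, LTB, NGFR, TNFRSF9, TNFRSF12A and TNFSF10 lost, BAX gained), and 10 to 12 with 1 library left out, and were 13 to 17 in the other fits except DESeq2 (10, with 19 members, TNFRSF9 among them, given no adjusted p). The 24 pathway genes became 14 with the GC trend removed and 14 in FPKM, and 17 to 25 with 1 library left out. The 5 members past the fold and unadjusted p became 2 at a 2-fold change and 4 to 7 with 1 library left out. BCL2L1, BMF, CFLAR, TNFRSF11B and TNFRSF14 passed under all 16 other choices of scaling, filter, tool and samples, and in FPKM. Among the central and most abundant members that did not pass, the sign turned for TNFRSF1A (0.045), TNFRSF10A (0.032), TNFRSF10B (0.027) and CASP2 (0.030) with library size alone, for TNFRSF1A (0.12), MCL1 (-0.027), BAK1 (0.035) and FADD (0.0041) with the GC trend removed, and for TNFRSF1A (0.032) and TNFRSF10B (0.015) in FPKM. Of the other members that did not pass, LTBR (0.087), TRADD (0.052), APAF1 (-0.040), PMAIP1 (-0.13) and BCL2L2-PABPN1 (0.0074) turned with the GC trend removed, and CASP6 (0.046), BCL2L11 (0.014) and BCL2L14 (-0.33) in FPKM. With 1 library left out, the range of the central and most abundant members crossed 0 for TNFRSF1A (-0.039 to 0.013), TNFRSF10A (-0.054 to 0.017), TNFRSF10B (-0.075 to 0.0045), TNFRSF21 (-0.0097 to 0.028), CASP2 (-0.066 to 0.012) and BCL2L12 (-0.035 to 0.051). Library size alone moved the median of the members from 0.01 to 0.06.

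With the replicate number as a block, 13 members passed, with CASP9 (0.26, adjusted p = 0.0513, edgeR) and TNFRSF9 (1.01, 0.0512) lost and no other call of the members changed. Samples sharing a number did not deviate together, with correlations of -0.09, -0.05 and -0.02 over 11221 genes, and the numbers were therefore taken as names only. NGFR, TNFRSF9 and LTB, with means under 50 counts, had standard errors of 0.35, 0.36 and 0.31 on the log2 scale, which limits the changes detectable at their depth.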

Other observations

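For CFLAR, CPM by library size divided by FPKM gave an effective transcript length of 4559, 4353 and 4682 bases in the controls and 4024, 3601 and 3660 bases in the overexpression samples, without overlap. This ratio differed by -0.27 on the log2 scale (limma, unadjusted p = 0.00438, adjusted p = 0.575), and of 10168 genes with a mean of at least 100 counts, 1.65% differed by as much. None of these genes passed an adjusted p of 0.05 in limma and 559 had an unadjusted p below 0.05, and no other tool was run on the ratio. The ratio was computed after the counts and the FPKM values of CFLAR had been seen to differ.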
